A study of Mus musculus with 6 samples.

Results

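The 41 genes described here belong to the Hippo pathway or are targets of its effector YAP, and they were chosen by gene symbol from the 25746 genes of a mouse RNA-seq count table. They fall into 4 roles: 7 core kinases and adapters, 11 upstream regulators and scaffolds, 8 YAP, TAZ, TEAD and VGLL factors, and 15 target genes. The CCN genes, which YAP also controls, were not among them. RNA was measured in 2 Acta2 knockout (KO) and 2 wild-type (WT) samples of mouse cardiac fibroblasts, and open chromatin by ATAC-seq in 1 KO and 1 WT sample. Acta2 encodes α-smooth muscle actin, the actin of contractile myofibroblasts.

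Per the labels, KO cells came from mice with floxed Acta2 (Acta2fl/fl), and KO and WT cells alike received Cre from an adenovirus and then TGFβ for 2 days. The same labels describe a tamoxifen-inducible fibroblast-specific knockout, in which 75 mg/kg of tamoxifen was given daily over 5 days to mice aged 6 weeks. They also describe coronary ligation at 9 weeks, a repeat tamoxifen course from 1 day before to 5 days after the infarct, and sorting of eGFP+ cells traced by Tcf21. Which of these sources each library came from is not stated, nor whether tamoxifen, infarction or the sort applied to it. Nothing states that the replicates were separate animals or cultures, so the p-values reflect the spread among these libraries alone, and that spread may be only technical.

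The Hippo pathway is a kinase cascade that restrains growth. MST kinases (Stk3, Stk4), with the adapter SAV1, activate LATS kinases (Lats1, Lats2) and their MOB1 partners, and LATS phosphorylates the co-activators YAP and TAZ (Wwtr1), which keeps them in the cytoplasm. Unphosphorylated YAP and TAZ enter the nucleus, bind TEAD factors on DNA and switch on target genes, and in fibroblasts this step responds to actin tension and substrate stiffness. Because the control acts mainly through phosphorylation and location of the proteins, mRNA levels of the pathway's own genes do not by themselves show how active YAP is. Some of these genes, such as Amotl2, are also YAP targets, so the roles overlap. Target transcripts lie downstream of YAP, but the activity of YAP itself was not measured here.

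Acta2 was checked first, since it tests the labels. Its level was 256 and 266 CPM, the depth-scaled count with TMM library sizes, in the KO libraries and 2190 and 2200 CPM in WT. The log2 fold change of KO over WT was -3.07 (SE 0.03, adjusted p = 1.59e-32 by edgeR's quasi-likelihood test), so transcript remained in the KO libraries at 0.119 of the WT level. The libraries held 8429166 to 11370115 estimated counts. Fibroblast markers, 12 listed, summed to 4000 CPM in both KO libraries and to 5220 and 5340 CPM in WT, and 9 of them were lower in KO and 2, Thy1 (0.30) and Gsn (0.11), higher. Endothelial markers summed to 508 and 519 CPM in the KO libraries against 380 and 405 CPM in WT, with 9 of 12 higher and Flt1 lower, and pericyte and smooth muscle markers to 88.8 and 95.7 CPM against 60.6 and 62.3 CPM, with 3 of 7 tested higher and 3 lower. Of the 8 mesothelial markers, 1 was higher and 4 were lower, and they summed to 301 to 314 CPM in all libraries. In bulk RNA, fewer cells of a type and less RNA per cell cannot be told apart. The part of these other cell types in the results on the Hippo genes was not tested.

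All 41 genes were expressed well enough to be tested. Of these, 11 were higher in KO, 5 were lower and 25 did not pass the threshold of an adjusted p below 0.05 (edgeR, Benjamini-Hochberg over 12192 genes). That is 39.0% called, next to 35.7% of all tested genes, with 18.3% higher and 17.4% lower over the table, so the share is near the background. Over the 41 genes the median log2 fold change was 0.05, against 0.00 for all tested genes. The median absolute log2 fold change of the 16 called genes was 0.34, against 0.40 for the 4352 called genes of the table. A change of at least 2-fold was found in 1 of the 16, Fjx1 (6.25%, against 14% of all called genes), while 12 of the 16 changed by less than 1.5-fold (75.0%, against 69.3%). These calls rest on a small spread between replicates: with DESeq2 9 of the 16 remained called (Lats1, Mob1a, Wwc2, Yap1, Wwtr1, Fjx1 and Nt5e did not), while 2058 genes (16.9%) were called over the table, and 0 of 16 remained with an assumed biological coefficient of variation of 0.2. Without WT replicate 2, 3 of the genes were lower instead of 5. The 41 genes together summed to 3650 and 3700 CPM in the KO libraries against 3370 and 3390 CPM in WT. This sum is not scaled to length and is weighted toward abundant transcripts. The most abundant were Ankrd1 (mean 740 CPM in KO and 619 in WT), Axl (510 and 410) and Vgll3 (507 and 496). The median log2 fold change above, 0.05, counts each gene equally. The KO and WT libraries also did not overlap in some genes that were not called, such as Vgll3 (log2 fold change 0.03) and Fat1 (0.04). With 2 libraries per genotype, a lack of overlap therefore carries little weight below. Its share over all tested genes was not computed.

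**Figure D1:**
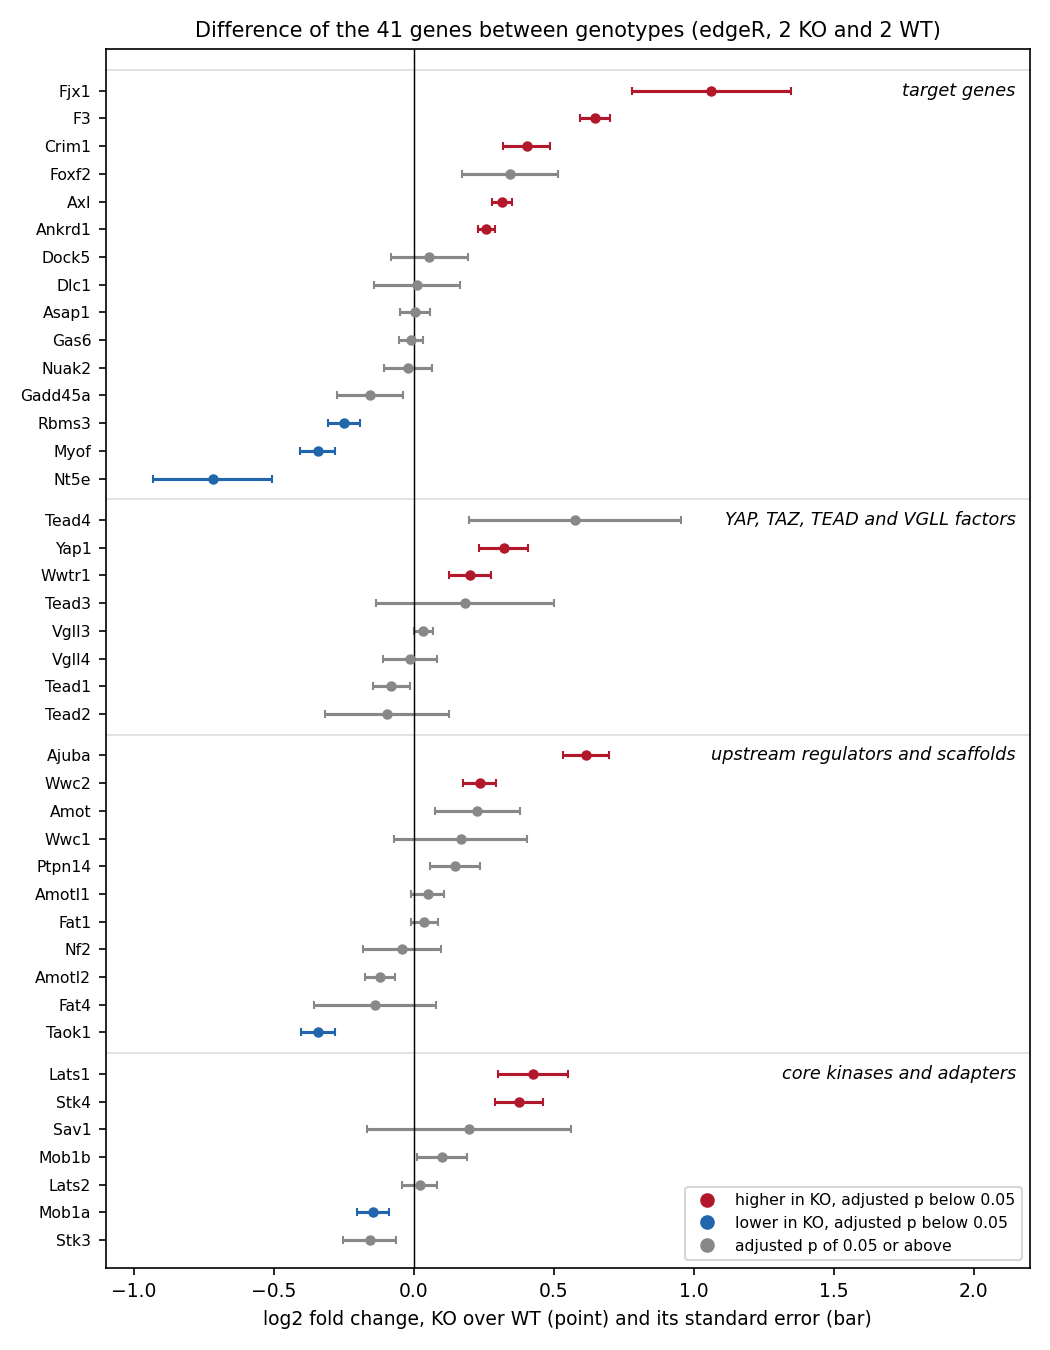
Log2 fold change of KO over WT (point) and its standard error (bar) for the 41 genes, ordered within each role, from 2 KO and 2 WT libraries. Red and blue points passed an adjusted p below 0.05 in edgeR. Fjx1, at 1.06, and Nt5e, at -0.72, lie farthest from 0 in their directions, and the red and blue points fall in every role except the factors, which have no blue one.

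Sequences that hold the core of the TEAD binding element are shown because TEAD factors carry YAP and TAZ to DNA. The letters searched were GGAATG, which reads CATTCC where it lies on the other strand. They are in capitals in each sequence below, and a match is a description of these letters and no evidence of binding. Sequences are from RefSeq GRCm38.p6, the assembly called mm10 in the labels, and read 5′ to 3′ on the strand of the gene.

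The first set is the 250 bases before the RefSeq start of 5 genes that were higher in KO and hold the letters there. Crim1 was picked by its size of change among the targets, and the other 4 were picked after their values were seen. The RefSeq promoters of Wwc2 (higher), Mob1a (lower) and 8 genes that did not pass also hold the letters and are not printed. In Axl the match begins 233 bases before the start, in Crim1 79, in Wwtr1 136 and in Yap1 141, while Ajuba has a pair of matches, at 186 and 164 bases before the start.
Axl, chr7:25788734-25788983, minus strand: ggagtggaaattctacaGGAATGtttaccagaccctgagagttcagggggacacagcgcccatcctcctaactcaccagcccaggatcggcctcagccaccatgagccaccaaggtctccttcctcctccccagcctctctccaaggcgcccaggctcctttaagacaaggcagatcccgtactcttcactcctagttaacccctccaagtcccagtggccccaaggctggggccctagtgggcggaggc
Crim1, chr17:78199998-78200247, plus strand: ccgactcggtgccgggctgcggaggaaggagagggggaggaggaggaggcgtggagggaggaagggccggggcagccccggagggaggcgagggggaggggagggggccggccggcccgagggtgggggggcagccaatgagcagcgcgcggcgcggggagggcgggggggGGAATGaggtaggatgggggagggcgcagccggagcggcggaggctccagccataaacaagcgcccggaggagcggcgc
Ajuba, chr14:54577662-54577911, minus strand: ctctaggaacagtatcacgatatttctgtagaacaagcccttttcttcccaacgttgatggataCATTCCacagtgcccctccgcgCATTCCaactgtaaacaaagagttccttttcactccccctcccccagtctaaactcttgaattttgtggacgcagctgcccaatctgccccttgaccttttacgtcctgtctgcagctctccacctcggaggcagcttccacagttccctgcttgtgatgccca
Wwtr1, chr3:57575911-57576160, minus strand: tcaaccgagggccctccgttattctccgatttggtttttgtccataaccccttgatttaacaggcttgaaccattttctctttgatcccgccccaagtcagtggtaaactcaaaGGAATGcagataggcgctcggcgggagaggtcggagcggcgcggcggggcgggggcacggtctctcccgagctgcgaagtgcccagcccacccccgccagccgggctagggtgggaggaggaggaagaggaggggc
Yap1, chr9:8004597-8004846, minus strand: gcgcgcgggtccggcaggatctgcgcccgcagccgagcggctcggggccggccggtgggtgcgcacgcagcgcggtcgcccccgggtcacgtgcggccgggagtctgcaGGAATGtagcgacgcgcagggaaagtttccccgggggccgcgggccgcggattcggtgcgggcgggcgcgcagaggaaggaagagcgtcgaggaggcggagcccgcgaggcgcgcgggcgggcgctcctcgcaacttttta

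Ankrd1, also picked after its values were seen, has 2 matches, 210 and 123 bases before its RefSeq start. They lie in an exon of a longer GENCODE transcript of Ankrd1, so 30 bases around each are shown. Both matches read GGAATG on the strand of the gene.
Ankrd1, chr19:36120037-36120066, minus strand: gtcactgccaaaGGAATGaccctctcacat
Ankrd1, chr19:36119950-36119979, minus strand: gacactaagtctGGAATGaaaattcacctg

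The last set is 300 bases on the WT summit of an accessible region linked to F3, Nt5e and Myof. These are the other targets with the largest changes that held the letters in such a window. The F3 window lies outside the gene, with its summit at -2405 bases from the start, and the Nt5e and Myof windows lie inside the genes and touch no exon. The fold enrichment at the summit in WT and in the overlapping KO peak was 4.52 and 6.80 for F3, 5.75 and 4.67 for Nt5e and 20.5 and 22.5 for Myof. The summits of these KO peaks lie outside the printed windows. The 300 bases on the KO summit hold no copy of the letters for F3 and Nt5e and 1 for Myof.
F3, chr3:121720982-121721281, plus strand: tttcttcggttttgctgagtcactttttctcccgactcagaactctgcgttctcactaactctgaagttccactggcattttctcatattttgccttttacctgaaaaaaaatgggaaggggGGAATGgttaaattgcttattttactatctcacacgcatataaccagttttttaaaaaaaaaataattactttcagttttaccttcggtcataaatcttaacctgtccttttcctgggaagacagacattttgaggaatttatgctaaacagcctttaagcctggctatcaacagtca
Nt5e, chr9:88357218-88357517, plus strand: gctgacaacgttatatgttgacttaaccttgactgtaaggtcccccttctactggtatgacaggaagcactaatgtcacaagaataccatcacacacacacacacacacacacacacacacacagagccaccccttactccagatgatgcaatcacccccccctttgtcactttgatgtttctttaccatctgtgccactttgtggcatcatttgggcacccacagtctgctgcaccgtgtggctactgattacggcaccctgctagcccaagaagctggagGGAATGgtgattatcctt
Myof, chr19:38004589-38004888, minus strand: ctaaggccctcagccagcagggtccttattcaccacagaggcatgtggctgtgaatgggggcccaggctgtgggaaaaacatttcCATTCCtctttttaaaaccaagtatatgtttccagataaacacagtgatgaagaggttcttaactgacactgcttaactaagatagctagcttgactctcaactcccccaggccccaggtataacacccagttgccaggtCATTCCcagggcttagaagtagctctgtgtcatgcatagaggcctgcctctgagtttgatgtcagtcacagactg

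Among the 7 core kinases and adapters, Lats1 and Stk4 were higher in KO and Mob1a was lower. That is 42.9% called, against 35.7% of all tested genes. Lats1 (ENSMUSG00000040021, chr10:7681214-7716460), one of the kinases that phosphorylate YAP and TAZ, read 21.4 and 25.2 CPM in the KO libraries against 16.4 and 18.1 CPM in WT. Its log2 fold change was 0.43 with SE 0.12 (edgeR adjusted p = 0.00856). The 2 genotypes did not overlap, but the KO libraries differed from each other by about as much as the lower one differed from WT. Without KO replicate 2 the adjusted p of Lats1 was 0.117 and without WT replicate 1 it was 0.0542 (edgeR), within a range of 0.00183 to 0.773 over all 12 alternative settings.

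Stk4 (ENSMUSG00000018209, chr2:164070322-164155524) encodes MST1, which acts above LATS. It read 44.7 and 45.3 CPM in the KO libraries against 36.2 and 33.2 CPM in WT, a log2 fold change of 0.38 with SE 0.08 (edgeR adjusted p = 9.2e-04). Both KO values lay above both WT values, and the call held with each library left out in turn. It was lost with an assumed biological coefficient of variation of 0.1. Mob1a (ENSMUSG00000043131, chr6:83326016-83343776), a co-activator of LATS, read 81.8 and 81.9 CPM in the KO libraries against 90.5 and 90.7 CPM in WT. Its log2 fold change of -0.15 with SE 0.06 (edgeR adjusted p = 0.0471) was the smallest called among the 41 genes. The call was lost whichever library was left out, with adjusted p of 0.153 and 0.17 without KO replicates 1 and 2, and 0.108 and 0.127 without WT replicates 1 and 2 (edgeR). Over all 12 alternatives the adjusted p of Mob1a ran from 0.0371 to 1.

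The paralogs of these genes did not pass the test. Stk3, which encodes MST2, had a log2 fold change of -0.16 (SE 0.09) and Lats2 of 0.02 (SE 0.06). Mob1b had 0.10 (SE 0.09) and Sav1, the scaffold that joins MST to LATS, 0.20 (SE 0.36). Whether Stk3 and Stk4, or Mob1a and Mob1b, changed differently from each other was not tested. In Lats2, 39.9% of 100-base windows also occur in Gm49361 on the same strand, and in Sav1 24.2% occur in Atl1 on the opposite strand, so these values are uncertain. Without KO replicate 2, Stk3 passed the test as well, in the lower direction.

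Upstream of the kinases, Ajuba and Wwc2 were higher in KO and Taok1 was lower, and the other 8 regulators did not pass. The share called, 27.3%, was below the 35.7% of all tested genes. Ajuba (ENSMUSG00000022178, chr14:54567472-54577558) encodes a LIM protein that holds LATS at adherens junctions under tension and limits its activity. It read 53.5 and 55.5 CPM in the KO libraries against 33.7 and 37.4 CPM in WT, a log2 fold change of 0.61 with SE 0.08 (edgeR adjusted p = 8.85e-07). The genotypes were well apart, 1.53-fold, and this was the largest called change among the genes that act above YAP.

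Wwc2 (ENSMUSG00000031563, chr8:47823959-47990924), a relative of the scaffold KIBRA that promotes LATS activation, read 90.3 and 88.2 CPM in the KO libraries against 73.4 and 78.2 CPM in WT. Its log2 fold change was 0.23 with SE 0.06 (edgeR adjusted p = 0.00312), and 6.55% of its windows are shared with Cldn22 on the opposite strand. Taok1 (ENSMUSG00000017291, chr11:77529162-77607815), a kinase that can activate MST, read 66.4 and 68.7 CPM in the KO libraries against 84.4 and 86.9 CPM in WT. Its log2 fold change was -0.34 with SE 0.06 (edgeR adjusted p = 6.88e-05). For Ajuba, Wwc2 and Taok1 the genotypes did not overlap, and each call held with each library left out in turn. With an assumed biological coefficient of variation of 0.1, Ajuba stayed called while Wwc2 and Taok1 did not.

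The 8 regulators that did not pass had log2 fold changes from -0.14 for Fat4 to 0.23 for Amot (SE 0.22 and 0.15). They include Nf2, the membrane-linked activator of LATS, at -0.04 (SE 0.14), and Fat1, an atypical cadherin, at 0.04 (SE 0.05). The angiomotins, which bind YAP at junctions and on actin, were at 0.23 for Amot, 0.05 for Amotl1 and -0.12 for Amotl2. Amotl2, itself a known YAP target, came closest to the threshold among the 8, with 95.3 and 94.2 CPM in KO, 102 and 104 CPM in WT and an adjusted p of 0.0868 by edgeR. Ptpn14, the gene of a tyrosine phosphatase that binds YAP, had 0.15 (SE 0.09) and Wwc1 0.17 (SE 0.24).

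Yap1 and Wwtr1, the genes of the co-activators YAP and TAZ, were both higher in KO. They were the only 2 of the 8 factors called, or 25%, against 35.7% of all tested genes. Yap1 (ENSMUSG00000053110, chr9:7931999-8004596) read 49.0 and 56.5 CPM in the KO libraries against 39.0 and 45.2 CPM in WT, a log2 fold change of 0.32 with SE 0.09 (edgeR adjusted p = 0.00479). The genotypes did not overlap, but the lower KO library and the higher WT library were close. Without KO replicate 2 the adjusted p of Yap1 was 0.114 and without WT replicate 1 it was 0.0698 (edgeR), within a range of 0.000181 to 0.913 over the 12 alternatives.

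Wwtr1 (ENSMUSG00000027803, chr3:57455649-57575910) read 54.2 and 52.9 CPM in the KO libraries against 47.2 and 45.9 CPM in WT. KO exceeded WT by 0.20 on the log2 scale, with SE 0.07 (edgeR adjusted p = 0.0357). Its libraries lay close within each genotype, and the difference of 1.15-fold was small. The call was lost whichever library was left out: the adjusted p was 0.189 and 0.0916 without KO replicates 1 and 2, and 0.0642 and 0.157 without WT replicates 1 and 2 (edgeR). Over the 12 alternatives the adjusted p of Wwtr1 ran from 0.0215 to 1.

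None of the 4 TEAD factors or the 2 VGLL cofactors passed the test. Tead1, with 66.9 and 70.7 CPM in the KO libraries against 75.7 and 70.0 CPM in WT, had a log2 fold change of -0.08 (SE 0.07). Tead2 had -0.10 (SE 0.22) and Tead3 0.18 (SE 0.32), with overlapping genotypes in both. Tead4 had the largest difference among the factors, 0.58, but it rested on 30 and 22 counts in KO and 14 and 13 in WT, with SE 0.38 and an adjusted p of 0.25 by edgeR. VGLL proteins bind TEAD in place of YAP: Vgll4, a repressor of TEAD, had -0.01 (SE 0.10) and Vgll3 0.03 (SE 0.03).

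Levels can be compared between genes only per length, as CPM per kb of exon. On that scale Vgll3 was the most abundant factor by far, at 69.8 in WT and 71.4 in KO. Wwtr1 followed at 9.75 in WT and 11.2 in KO, above Vgll4 at 5.92 and 5.86, Tead1 at 5.37 and 5.07 and Yap1 at 4.55 and 5.70. Tead1 was the leading TEAD gene, and Tead2 at 1.19 and 1.11, Tead4 at 0.433 and 0.644 and Tead3 at 0.408 and 0.467 were low in both genotypes. In the core cascade Mob1a led at 18.9 in WT and 17.1 in KO, then Lats2 at 10.2 and 10.4, whereas Lats1 stood at 2.37 and 3.19. Among the targets Ankrd1 was highest, at 214 in WT and 256 in KO. Gas6, at 87.3 and 86.6, came next in WT and Axl, at 81.4 and 101, came next in KO. In WT, Tead4 and Tead3 could not be put in order, since they differed by less than the Tead3 libraries differed from each other.

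**Figure D2:**
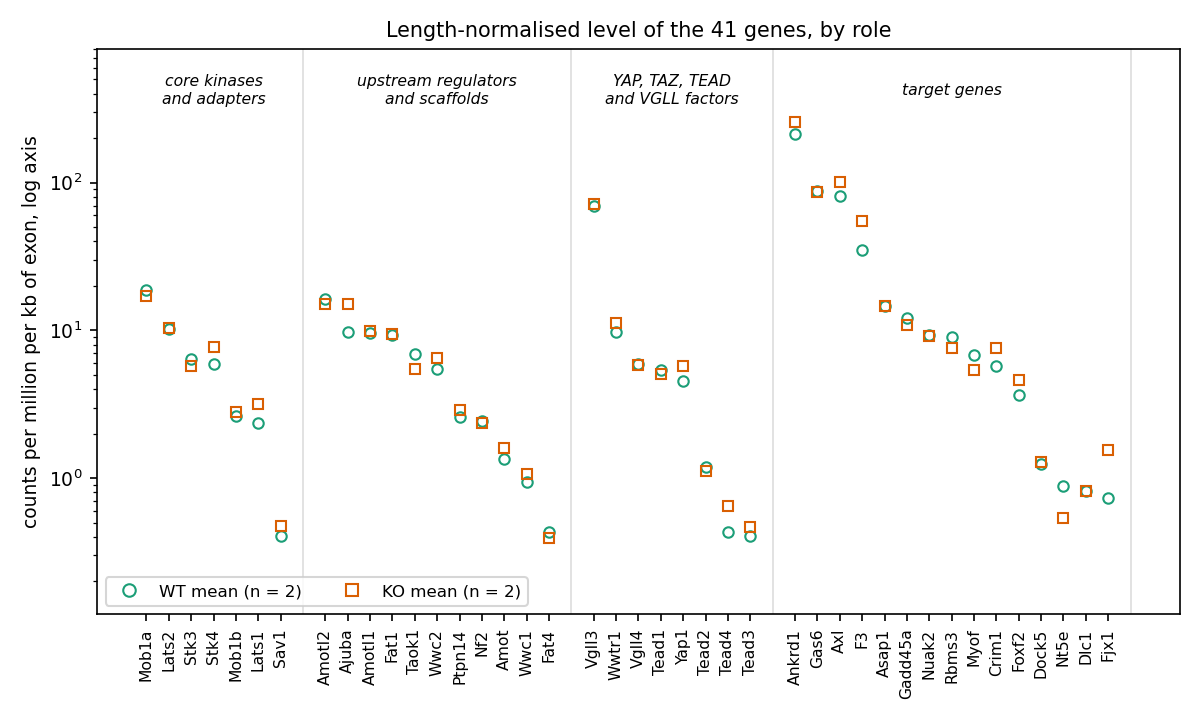
Level of each gene in CPM per kb of exon, on a log axis, as the mean of 2 WT libraries (circle) and 2 KO libraries (square), grouped by role. Vgll3 at 69.8 in WT stands above the other factors, and Ankrd1 at 214 in WT is the highest of the 41 genes.

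The 15 target genes moved in both directions: 5 were higher in KO, 3 were lower and 7 did not pass. That is 53.3% called, against 35.7% of all tested genes, and their median log2 fold change was 0.01. The targets were chosen with earlier results of these data known, so this share is a description only. The highest target, Ankrd1 (ENSMUSG00000024803, chr19:36111961-36120099), encodes a stress-induced ankyrin repeat protein and is a classical YAP target. It read 735 and 746 CPM in the KO libraries against 613 and 624 CPM in WT, a log2 fold change of 0.26 with SE 0.03 (edgeR adjusted p = 1.87e-07). The libraries of each genotype lay close together and the genotypes were clearly apart, at 1.2-fold. Ankrd1 is also high in heart muscle cells, so cardiomyocyte markers are given: 16 markers summed to 15.0 to 16.2 CPM over all libraries. Pln, Mybpc3, Nppa and Myl3 had no counts in any library, and Myh6 and Myh7 had at most 1. Of the 3 tested, Tnnt2 was lower (-0.74), Nppb was higher (0.52) and Myl7 did not pass. The part of heart muscle cells in the Ankrd1 result was not tested. Ankrd1 lies 1.86 Mb from Acta2 on chromosome 19 and Myof lies 3.64 Mb from it. Whether closeness to the engineered locus plays a part was not tested.

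Axl (ENSMUSG00000002602, chr7:25757273-25788705), a receptor tyrosine kinase, read 505 and 514 CPM in the KO libraries against 406 and 414 CPM in WT. That is a log2 fold change of 0.31 with SE 0.04 (edgeR adjusted p = 4.59e-08), with no overlap of the genotypes. Gas6, the ligand of AXL, read 222 and 220 CPM in the KO libraries against 220 and 225 CPM in WT, a log2 fold change of -0.01 (SE 0.04). So the receptor transcript was higher in KO while no difference in the ligand transcript was detected. Macrophages also express Axl, and 12 macrophage markers summed to 190 and 189 CPM in the KO libraries against 111 and 107 CPM in WT, with 6 of the 9 tested higher and 0 lower. The higher ones were Lyz2, with 1070 and 1066 counts in KO and 440 and 441 in WT, Cd68, Cd14, C1qa, C1qb and Adgre1, with 66 and 80 counts in KO and 13 and 25 in WT (log2 fold change 1.58). Fcgr1 had no counts in any library, Mrc1 had at most 5, and Ptprc had 11 and 9 in KO and 5 and 1 in WT. Their part in the Axl result was not tested.

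F3 (ENSMUSG00000028128, chr3:121723537-121735048) encodes tissue factor, the starter of blood coagulation. It read 138 and 139 CPM in the KO libraries against 90.2 and 86.3 CPM in WT, a log2 fold change of 0.65 with SE 0.05 (edgeR adjusted p = 1.2e-10). This was the smallest p of the 41 genes, and the genotypes were 1.57-fold apart. Fjx1 (ENSMUSG00000075012, chr2:102449366-102452499), the mouse four-jointed homolog that encodes a secreted glycoprotein, had the largest change, 1.06 with SE 0.28 (edgeR adjusted p = 0.00433). It was a scarce transcript, with 58 and 50 counts in KO and 21 and 19 in WT, or 5.08 and 4.56 CPM against 2.52 and 2.10 CPM. DESeq2 gave Fjx1 the same size of change with an adjusted p of 0.0971, within a range of 0.0037 to 0.127 over the alternatives in which it was tested.

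Crim1 (ENSMUSG00000024074, chr17:78200248-78376592), a transmembrane protein that binds BMPs, read 46.0 and 45.0 CPM in the KO libraries against 33.1 and 35.6 CPM in WT. KO exceeded WT by 0.40 on the log2 scale, with SE 0.08 (edgeR adjusted p = 4.16e-04), and the genotypes did not overlap.

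The targets that were lower in KO were Nt5e, Myof and Rbms3. Nt5e (ENSMUSG00000032420, chr9:88327197-88372092) encodes CD73, the surface enzyme that makes adenosine from AMP and a common marker of stromal cells. It was scarce, with 4.47 and 4.75 CPM in the KO libraries against 6.84 and 8.30 CPM in WT, a log2 fold change of -0.72 with SE 0.21 (edgeR adjusted p = 0.00943). The genotypes did not overlap, but the WT libraries were apart from each other: without WT replicate 2 the log2 fold change was -0.57 and the adjusted p 0.113 (edgeR), within a range of 0.00598 to 0.382 over the alternatives.

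Myof (ENSMUSG00000048612, chr19:37899036-38043577), a ferlin that acts in membrane repair and fusion, read 66.5 and 69.8 CPM in the KO libraries against 83.5 and 89.4 CPM in WT. Its log2 fold change was -0.34 with SE 0.06 (edgeR adjusted p = 8.73e-05). Rbms3 (ENSMUSG00000039607, chr9:116572746-117872584), an RNA-binding protein, read 79.6 and 78.9 CPM in the KO libraries against 94.6 and 93.7 CPM in WT. For Rbms3 the log2 fold change was -0.25 with SE 0.06 (edgeR adjusted p = 0.00121). For Myof and Rbms3, as for Ankrd1, Axl, F3 and Crim1, the call held with each library left out in turn. With an assumed biological coefficient of variation of 0.1, F3 alone of these genes stayed called.

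Besides Gas6, the targets that did not pass were Asap1, Dlc1, Dock5, Foxf2, Gadd45a and Nuak2. Their log2 fold changes ran from -0.16 for Gadd45a to 0.34 for Foxf2 (SE 0.12 and 0.17). Foxf2, a forkhead factor of mesenchyme, read 11.2 and 10.6 CPM in the KO libraries against 9.83 and 7.41 CPM in WT, and passed the test only without WT replicate 1. In Gadd45a, a stress-response gene, 12.3% of windows are shared with E230016M11Rik on the opposite strand.

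**Figure D3:**
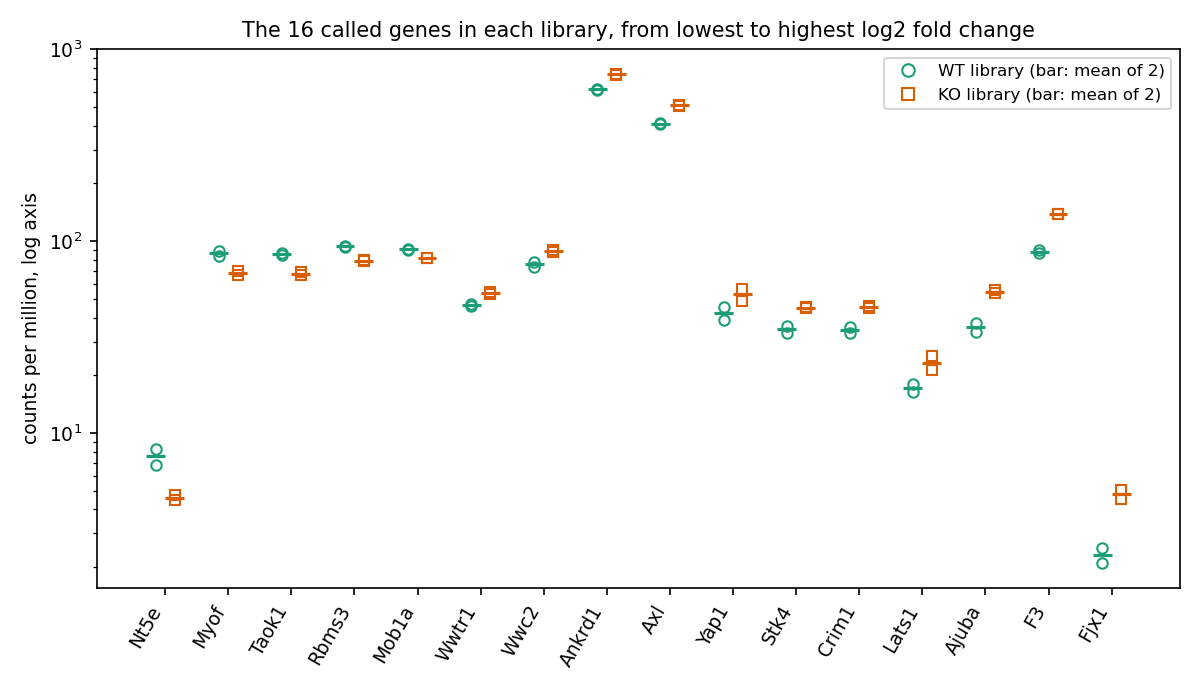
CPM of the 16 called genes in each of the 2 KO and 2 WT libraries. For Yap1 the KO values start at 49.0 and the WT values end at 45.2, and for F3 the points of the genotypes lie farther apart, at 138 and 139 against 90.2 and 86.3.

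Further genes of the pathway outside the 41 were described from 5 lists, in which 47 of 102 tested genes passed, 46.1% against 35.7% of all tested genes. The 5 lists were chosen with earlier results of these data known. None of their shares of called genes, here and below, is therefore independent of these data, and none was tested. Among 31 tested upstream regulators, 7 were higher in KO and 2 lower, with Lpp (0.27), Mark3 (0.51) and Rassf1 (0.20) leading the higher ones by p. Stk38l, an NDR kinase related to LATS, was lower by a log2 fold change of -0.21 and Map4k4, which can phosphorylate LATS, by -0.23. This list's share of called genes, 29%, was below the 35.7% of all tested genes.

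The STRIPAK complex is a phosphatase assembly that removes activating phosphates from MST kinases. In a list of 16 tested genes that holds its subunits and also the PP1 catalytic genes Ppp1ca and Ppp1cb, which are not part of it, 6 were higher in KO and 0 lower. The catalytic subunit gene of STRIPAK, Ppp2ca, read 110 and 111 CPM in the KO libraries against 75.2 and 71.7 CPM in WT (log2 fold change 0.59, adjusted p = 3.97e-09 by edgeR). Strn4, a striatin scaffold, had 0.63 and Cttnbp2nl 0.28. The share called, 37.5%, was near the background.

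Genes that hold YAP in the cytoplasm or act on its turnover moved both ways, with 5 of 16 higher and 6 lower. That is 68.8% called, against 35.7% of all tested genes, of which 18.3% were higher and 17.4% lower. Sfn, the σ member of the phosphoprotein-binding family that retains YAP, read 67.7 and 62.5 CPM in the KO libraries against 15.3 and 18.9 CPM in WT, a log2 fold change of 1.92 with SE 0.10 (edgeR adjusted p = 3.46e-15). Siah2, a ubiquitin ligase that targets LATS2, read 11 and 10.5 CPM in the KO libraries against 3.12 and 3.32 CPM in WT, a log2 fold change of 1.73 with SE 0.21 (edgeR adjusted p = 1.57e-07). Csnk1d, a kinase that primes YAP for degradation, had 0.33. On the lower side Otub1 had -0.32, Ywhaq -0.11 and Fbxw11, part of the ligase that degrades YAP, -0.25. These 2 largest changes, of Sfn and Siah2, exceeded every change among the 41 genes.

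Of 12 tested cofactors of TEAD, Jun (0.34) and Fosl1 (0.23), parts of the AP-1 factor, were higher and Runx1 (-0.24) and Zeb1 (-0.26) were lower. These 4 make up 33.3% of that list, near the 35.7% of all tested genes. Among 27 further tested target genes of YAP, 13 were higher and 4 lower (median 0.10 on the log2 scale). That is 63% called, against 35.7% of all tested genes. Ptgs2, the inducible cyclooxygenase, read 779 and 851 CPM in the KO libraries against 349 and 390 CPM in WT (1.14, SE 0.04, adjusted p = 4.29e-18 by edgeR). Tgm2, a crosslinking transglutaminase, had 1.12 and Tgfb2 0.89. On the lower side Marcks had -0.48, Thbs1 -0.26 and Fstl1 -0.11. Many of these genes also answer to other pathways.

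In the ATAC-seq data, with 1 sample per genotype, there is no replicate and no test. Peaks were called by the authors in each sample alone, 121748 in KO and 123935 in WT, covering 126.6 and 126.4 Mb. The fold enrichment of a peak, its pileup over the background of the library, is the authors' value, and its median was 6.38 in KO and 5.75 in WT. All 41 genes had a peak within 1000 bases of a start site in both samples, as did 96.8% of all genes tested in RNA. The highest such promoter peak had a median fold enrichment of 21.3 in KO and 19.7 in WT over the 41 genes. The ratio of KO to WT had a median of 1.12 over the 41 genes and 1.13 over 11796 tested genes with a promoter peak in both, so the 2 medians were nearly equal.

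A ratio of at least 1.5 was found for 3 of the 41 genes (7.32%, next to 6.34% of all), and a ratio of at most the inverse for 0 (next to 0.526%). Ankrd1 had the highest ratio, 1.85, from 22.1 in KO and 11.9 in WT. The Ankrd1 promoter peak of KO, chr19:36118928-36120708, had its summit at position 36119980, beside the second 30-base piece printed above, and its summit window held both copies of GGAATG. In WT a single peak of 5888 bases, chr19:36114803-36120690, had its summit farther upstream, at 36120368, with no copy in the window. A peak farther upstream, with its summit at -9494 bases from the start in KO, had folds of 29.3 in KO and 27.1 in WT. Ankrd1 was thus higher in KO in RNA and in the fold of its promoter peak, the latter in 1 sample each.

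Nf2 had a ratio of 1.82, from 28.5 and 15.6, but at peaks in different places. At the 5′ end of Nf2 the folds were 16.6 in KO and 15.6 in WT, and at an internal peak (KO chr11:4825874-4827463), which reached a start-site window in KO, they were 28.5 and 16.02. Wwtr1 had a ratio of 1.52, from 31.9 and 20.9. For Yap1 the values were 19.6 and 14.0, a ratio of 1.40. The lowest ratios were 0.733 for Tead2, from 7.23 in KO and 9.86 in WT, and 0.782 for Dlc1, from 27.6 and 35.3. By RNA call, the median ratio was 1.12 for the 11 genes higher in RNA, 1.08 for the 5 lower and 1.12 for the 25 others. F3, Fjx1 and Ajuba, the 3 largest changes upward in RNA, had ratios of 0.970, 0.977 and 0.967.

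**Figure D4:**
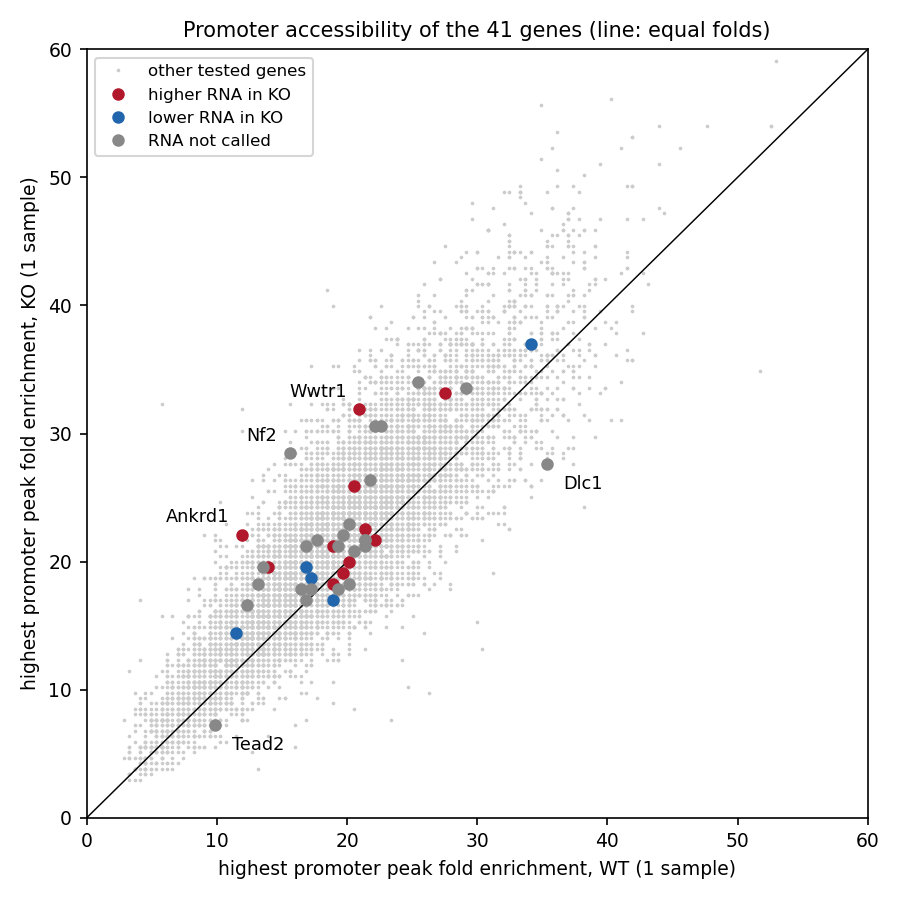
Highest fold enrichment of a promoter peak in KO against WT, 1 ATAC-seq sample each, for the 41 genes (large points, coloured by RNA call) and other tested genes (small grey points). The line marks equal folds, 3 genes lie outside the axes, and Ankrd1, Nf2 and Wwtr1 are the labelled points above the line.

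Peaks within a gene or up to 10000 bases before it numbered 658 in KO and 667 in WT for the 41 genes. Of these, 21.9% in KO and 21.1% in WT had no overlapping peak in the other sample, next to 23.7% and 24.4% of all peaks. Peaks found in a single sample were weak, with a median fold of 4.25 in KO and 3.70 in WT. With a −log10 q of at least 10, only 4 of 294 in KO and 0 of 274 in WT lacked a partner, 1.36% and 0.0%, next to 1.48% and 1.16% of all such peaks. The 4 are linked to Crim1, Myof, Stk3 and Wwtr1, and the strongest, at Stk3 (chr15:34986763-34987367), had a fold of 12.3. The Myof peak lies before the start of the gene. These genes were named after their values were seen.

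GGAATG was present, on either strand, in 21.9% of the 300-base summit windows of the linked peaks in KO and 25.6% in WT, next to 20.7% and 20.4% of all peaks. The AP-1 site TGANTCA, a string that neither contains GGAATG nor is contained in it, was present in 20.5% and 18.7%, next to 21.3% and 19.6%. Promoters were searched in the same way. Of the 41 genes, 33 have a promoter in the RefSeq table (250 bases before to 50 after the start), and 16 of the 33 hold GGAATG, or 48.5%, next to 14.4% of 9526 tested genes with a promoter there and 16.6% of 27025 genes in all. By role these were 5 of 6 factors, 3 of 6 core genes, 5 of 11 upstream regulators and 3 of 10 targets.

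By RNA call the letters were found in 7 of the 10 higher genes with a promoter in the table (Ajuba, Ankrd1, Axl, Crim1, Wwc2, Wwtr1 and Yap1), 1 of the 5 lower ones (Mob1a) and 8 of 18 others. Over all tested genes they were found in 15.2% of the higher, 15.1% of the lower and 14.0% of the other genes. TGANTCA was found in 1 of the 39 promoters of these genes, that of F3, or 2.56%, next to 7.81% of all promoters. These counts are descriptions with no test, since the genes were chosen as a pathway and known targets of TEAD.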

How the data were processed

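RNA-seq was deposited for 2 KO and 2 WT samples and ATAC-seq for 1 of each, grouped by the genotype in the labels. The authors deposited estimated counts per gene, 8429166 to 11370115 per library, of which 10.83 to 12.23% are not whole. Per the labels' protocols, 150 bp paired reads were trimmed with Trim Galore 0.6, and RNA reads were aligned to mm10 with STAR 2.5.3a. ATAC-seq reads of 10000 cells were aligned with Bowtie2 2.3, and MACS2 called peaks in each sample. For the counting program, annotation and MACS2 version the sources used here give nothing. The kit is not stated to keep strand. The deposited peak columns hold an integer score, a fold enrichment, which is a ratio over the background of that library, and −log10 values of p and q at the summit, and the authors' smallest −log10 q was 1.86 in KO and 1.70 in WT. A peak score or fold is the authors' and was used to describe and filter peaks only. The protocols speak of TPM, but the deposited totals differ between libraries as counts do, and whole counts had been assumed when the test was planned.

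Estimated counts were rounded. The test was that of edgeR 4.0.16 under R 4.3.3 (filterByExpr with minimum count 10, TMM, a quasi-likelihood fit of genotype, Benjamini-Hochberg over 12192 genes at 0.05). Standard errors (SE) were taken as |log2 fold change| over the root of the F statistic. Of 25746 genes, 25712 were found in GENCODE M21. The fit was tested on simulated counts. Replicates differed by more than sampling noise (chi-square per degree of freedom 1.99 in KO and 1.77 in WT). The members and lists were chosen with earlier results of these data known. Named genes are Acta2, every called member, every factor and core gene, and up to 3 genes per direction and list with the smallest p. Sequences follow the largest called targets holding GGAATG, up to 2 per direction. Genes named outside this rule were chosen after their values were seen. Alternatives were another scaling, filter, tool, replicate block, assumed spread and each library left out.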

Additional observations from a re-analysis of the deposited data

How the results depend on the processing

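Of the 16 called genes, 191 values were recomputed under 12 alternative settings: 0 changed direction, 141 stayed past the threshold and 50 did not, and 0 of the 16 calls held under all 12. Two-library groups give a fitted coefficient of variation (BCV) of 0.0311, a small spread on which the small calls rest. With DESeq2 1.42.0, 6 members were higher and 3 lower (lost: Lats1, Mob1a, Wwtr1, Yap1, Fjx1, Nt5e and Wwc2), and 29 other pathway genes passed against 47 with edgeR, while 2058 genes passed in the table (16.9%). With an assumed BCV of 0.1, 3 were higher (F3, Fjx1 and Ajuba), 1 was lower (Nt5e) and 13 other pathway genes passed, of 1780 in the table. With an assumed BCV of 0.2 there were 0 higher, 0 lower and 4 other pathway genes, of 398 in the table. Leaving out 1 library at a time gave 8 to 10 higher, 3 to 5 lower and 36 to 40 other pathway genes, with a lone sample assumed to vary like the other group. Other scalings and filters kept 15 or 16 calls, losing Mob1a with library size as the only scaling or with no filter, and leaving Fjx1 untested at a minimum count of 50. With library size alone 56.3% of all calls were higher, against 51.3%.

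With the replicate number as a block, 11 members were higher, 5 lower and 47 other pathway genes passed, so it changed no call of a member. The numbers are shared by 2 pairs only, whose deviations correlated at 0.125, and nothing says that they mark a shared culture or day.

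For peaks, requiring an overlap of 50% of each peak raised the share of linked peaks in a single sample to 40.0% in KO and 40.6% in WT, and requiring a −log10 q of at least 10 lowered it to 1.36% and 0.0%. GGAATG was in 51.7% and 48.7% of whole linked peaks, and with A or T before it in 17.3% and 18.9% of summit windows. Promoter peaks were found for 41 genes in both other settings. ATAC-seq depth is unknown and limits all comparisons of folds.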
